A study of Homo sapiens with 16 samples.

Results

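The transcriptional response of the bladder cancer (BC) cell line 253J to CM-1758 was compared with the mean response of the other 3 BC cell lines, J82, RT112 and TCCSUP. CM-1758 is a histone deacetylase (HDAC) inhibitor. Each line had 2 control libraries from cells that received the vehicle, 0.01% DMSO, and 2 libraries from cells treated with CM-1758, so the comparison rests on the 4 libraries of 253J and the 12 libraries of the other lines, 16 in all. Treated cells were exposed for 48 h to the IC50 of their own line, and TCCSUP was grown in another medium than the other 3 lines. Line, dose and, for TCCSUP, medium cannot be told apart in these comparisons. The labels give no genetic modification for any line.

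For each gene the response was the log2 ratio of treated over control cells, and the log2 difference was the response of 253J minus the mean response of the other 3 lines. A gene was called at a log2 difference beyond 2 with an adjusted p below 0.01 (edgeR quasi-likelihood test, Benjamini-Hochberg over all genes tested). A called gene was taken as particular to 253J when its response also differed from that of each other line alone, in the same direction, by more than 1 on the log2 scale with an adjusted p below 0.05. Of the 35993 genes counted, 21297 passed the filter on low counts, and 803 of these were particular to 253J. Levels are given as CPM (counts scaled to a common library size) adjusted for library composition, and compare libraries for 1 gene, not genes with each other.

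HDACs remove acetyl groups from histones, and histone acetylation marks open, transcribed chromatin. An HDAC inhibitor lets acetylation build up, which can switch on genes that were silent and also lowers the transcription of many highly expressed genes. Cancer cell lines differ in which genes they have silenced.

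The libraries held between 22506431 and 32537104 counts, with 22626427 to 30149491 in 253J, and no pair of replicates was identical within counting noise. The 253J controls expressed the epithelial keratins KRT18 and KRT19 at a mean of 2330 and 877 CPM beside the mesenchymal filament gene VIM at 1500 CPM. Of the other epithelial markers, KRT8 and CDH1 were at 365 and 181 CPM, but KRT7 was at 4.94 CPM. The epithelial adhesion gene EPCAM and the urothelial regulator GATA3 were near absent in them, at 0.467 and 0.374 CPM, and the uroplakins UPK1B, UPK2 and UPK3A had no counts. Of the other urothelial markers, PPARG and FOXA1 were at 6.21 and 5.87 CPM, TP63 at 0.113 CPM and KRT5 at 0 CPM. The leukocyte marker PTPRC and the endothelial markers PECAM1 and CDH5 were at 0 in the 253J controls. Another leukocyte marker, CD68, was at 7.6 CPM in them, and the endothelial marker VWF was at 0.172 CPM.

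The response of 253J was higher than the mean of the other lines for 365 genes (1.71% of those tested) and lower for 1112 genes (5.22%). Without a limit on size, 2942 genes (13.8%) had an adjusted p below 0.05 with a higher response and 3890 (18.3%) with a lower one. Genes particular to 253J numbered 262 with a higher response (1.23%) and 541 with a lower one (2.54%). The median log2 difference over all genes tested was -0.072. At the size limit, FAM149B1 (2.0 ± 0.21) and RHPN2 (-2.0 ± 0.22) lay just inside and RGL1 (2.0 ± 0.24) and SPINT2 (-2.0 ± 0.19) just outside.

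**Figure D1:**
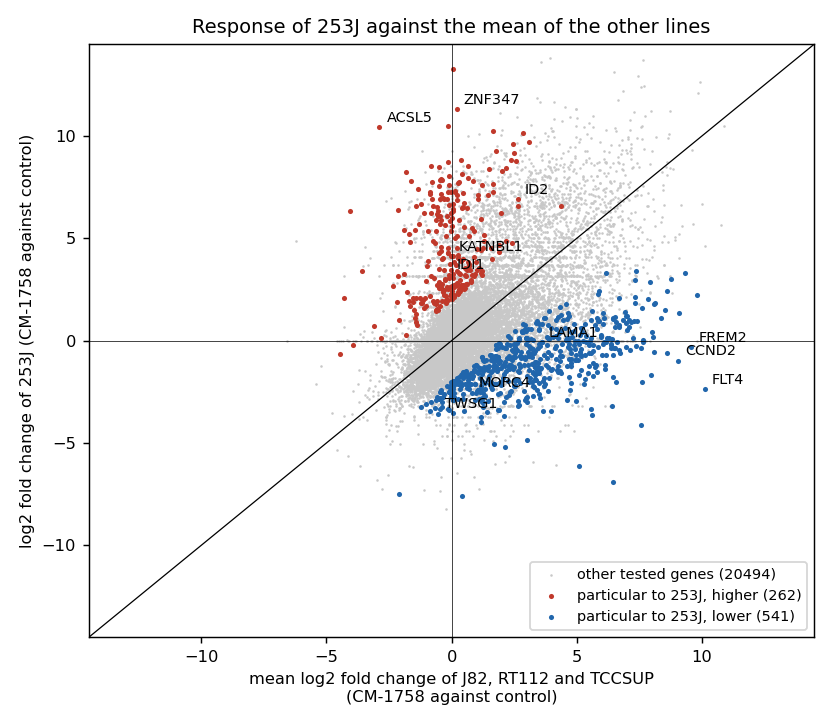
Each point is 1 of the 21297 genes tested, with the fitted log2 fold change of 253J on the vertical axis and the mean fitted log2 fold change of J82, RT112 and TCCSUP on the horizontal axis. The black diagonal marks equal responses. The 262 genes with a higher response lie above it and mostly near 0 on the horizontal axis, and the 541 with a lower response lie below it and reach far to the right. Fitted values beyond about 5 belong mostly to genes without counts in 1 group.

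The 2 directions differed in which line moved. Of the 262 genes with a higher response, 105 changed in 253J and in no other line, 79 changed the opposite way in at least 1 other line, 66 changed the same way in another line but less, and 12 did not change in 253J (change within a line: log2 fold change beyond 1, adjusted p below 0.05). Of the 541 genes with a lower response, 39 changed in 253J alone and 217 changed in 253J with the opposite change in another line. A further 55 changed in 253J the same way as another line, and 230 did not pass the test in 253J.

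The level before treatment moved with the direction. The 253J controls had the lowest level of the 4 lines for 238 of the 262 genes with a higher response (90.8%, against 23.7% of all genes tested). They had the highest level for 459 of the 541 genes with a lower response (84.8%, against 25.7% of all genes tested). Control libraries enter the log2 difference themselves, so these shares are a description without a test.

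**Figure D2:**
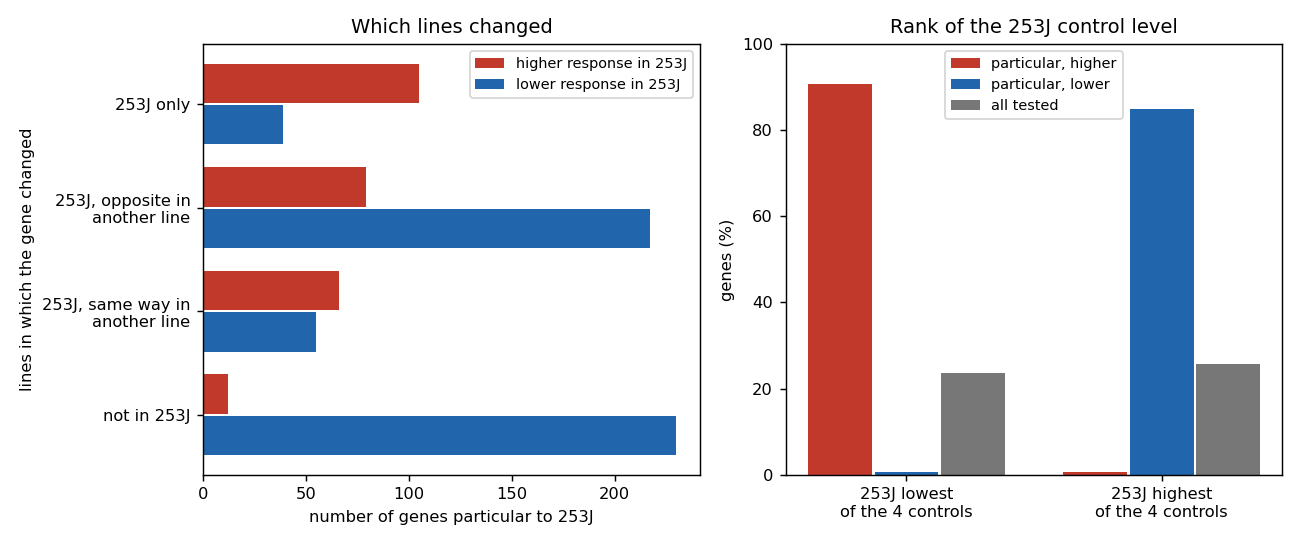
Left, number of genes particular to 253J by the lines in which they changed with CM-1758, with 105 and 39 genes changed in 253J alone. Right, percentage of genes for which the 253J control level was the lowest or the highest of the 4 control levels, for particular genes and for all genes tested. The share with the lowest 253J control was 90.8% for genes with a higher response and the share with the highest was 84.8% for genes with a lower response.

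Many large differences involve genes without counts in some group. To describe genes that can be measured everywhere, those whose control mean reached 5 CPM in all 4 lines were taken apart, a limit chosen after the data were seen. Of these 9182 genes, 35 were particular to 253J with a higher response (0.381%) and 60 with a lower one (0.653%). Their 253J control level was the lowest of the 4 lines for 28 of the 35 and the highest for 42 of the 60.

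KATNBL1, a regulator of the microtubule-severing enzyme katanin, had the largest higher response among these. Its level was 27.7 and 29.7 CPM in the 253J controls and 431 and 580 CPM after CM-1758. In the other lines it lay between 29.4 and 50.8 CPM in the controls and between 18.9 and 93.6 CPM after treatment. The 253J treated libraries thus stood above the other 14 libraries, and the log2 difference was 4.15 ± 0.21 (SE, adjusted p = 6.38e-09).

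Genes of the mevalonate pathway, which makes isoprenoids and cholesterol, were among them. IDI1, the isopentenyl diphosphate isomerase, rose from 51.2 and 32.7 CPM to 316 and 465 CPM in 253J, whereas it was between 232 and 382 CPM in all J82 libraries and between 68 and 132 CPM in those of RT112 and TCCSUP. Its log2 difference was 3.32 ± 0.28 (adjusted p = 5.85e-07). HMGCS1, which makes HMG-CoA upstream in the same pathway, rose from 75.9 and 63.4 to 266 and 385 CPM, with a log2 difference of 2.25 ± 0.24 (adjusted p = 5.34e-06). The log2 difference of HMGCS1 was 1.96 without treated replicate 3 of 253J, just below the limit. Of the 28 tested genes of cholesterol synthesis and uptake, only these 2 were called higher, and STARD4, which carries cholesterol between membranes, was called lower (log2 difference -2.74, and -1.23 with a mean without J82). Over all genes, 1.71% were called higher and 5.22% lower. At an adjusted p below 0.05, 8 members had a higher and 5 a lower response by edgeR, against 13.8% and 18.3% of all genes. The median difference of the list, 0.059, was near that of all genes.

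TIMP1, a secreted inhibitor of matrix metalloproteinases, rose in 253J from 162 and 165 CPM to 1250 and 1500 CPM, while it stayed between 21.5 and 51.6 CPM in J82 and RT112 and between 109 and 202 CPM in TCCSUP. Its log2 difference was 3.03 ± 0.31 (adjusted p = 4.57e-06).

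SQSTM1, the autophagy receptor p62, rose from 673 and 630 CPM to 5730 and 5770 CPM in 253J, and no library of the other lines was above 1710 CPM. Its log2 fold change was 1.06 in RT112, 0.92 in TCCSUP and -0.22 in J82. RRAGC, a Rag GTPase that brings mTORC1 to the lysosome, went from 7.28 and 7.13 to 67.1 and 71.1 CPM. WIPI1, which binds phosphoinositides on forming autophagosomes, went from 1.56 and 1.84 to 22 and 21.3 CPM. In the list of 31 tested lysosome and autophagy genes, 4 were called higher and none lower, against 1.71% and 5.22% of all genes. SQSTM1 and WIPI1 were among these 4, and RRAGC was not. By the same edgeR test, 12 of the 31 were higher and 7 lower at an adjusted p below 0.05, against 13.8% and 18.3% of all genes. The median difference of the list was 0.24. Its median log2 fold change was 0.61 in 253J and nearly as high in RT112, at 0.53, against 0.18 in J82 and 0.069 in TCCSUP. The other called members were ATG9B and GPNMB, and with replicate number as a block their adjusted p rose to 0.012 and 0.0269. Without 1 library of 253J it was 0.0198 (control replicate 2) or 0.0189 (control replicate 3) for ATG9B, and 0.0353 (control replicate 2), 0.0131 (treated replicate 1) or 0.0165 (treated replicate 3) for GPNMB.

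Stress and redox genes did not move as 1 group. HMOX1, the heme oxygenase induced by oxidative stress, rose from 72.2 and 95 CPM to 863 and 1080 CPM in 253J and had a log2 difference of 2.43 ± 0.29 (adjusted p = 1.86e-05). DDIT3, which encodes the stress factor CHOP, rose from 28.8 and 32.8 to 171 and 202 CPM, and J82 held 82.6 and 58.8 CPM in controls and 37.7 and 33.2 CPM after treatment. In contrast, SLC7A11, the cystine transporter, fell in 253J from 415 and 417 CPM to 53.5 and 69 CPM, with a log2 difference of -2.41 ± 0.29 (adjusted p = 1.95e-05). The neutral amino acid transporter SLC1A4 fell from 68 and 64.6 to 12.6 and 15.7 CPM. Among 28 tested ATF4 and amino acid stress genes, 1 was called higher and 4 lower, against 1.71% and 5.22% of all genes. By edgeR 16 had a lower and 6 a higher response at an adjusted p below 0.05, against 18.3% and 13.8% of all genes. The median difference of the list was -0.98.

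Genes of chromatin, cell division and mitochondria were also among the 35. HMGA1, a chromatin architecture protein, went from 39.1 and 35.4 CPM to 247 and 268 CPM, and the other lines had no library above 79.3 CPM. CKS2, a subunit of cyclin-dependent kinases, went from 123 and 101 to 754 and 719 CPM, above the other 14 libraries, whose highest value was 194 CPM. SLC25A4, the mitochondrial ADP/ATP carrier, went from 9.31 and 10.1 to 136 and 144 CPM. The log2 differences were 3.16 ± 0.16 (adjusted p = 8.31e-09), 2.61 ± 0.23 (8.22e-07) and 3.21 ± 0.18 (1.76e-08) in this order.

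ID2 and ANKRD1 rose in every line and most in 253J. ID2, an inhibitor of basic helix-loop-helix factors and a TGF-beta target, went from 4.09 and 4.29 CPM to 480 and 520 CPM in 253J. Treated libraries held 8.99 and 14.8 CPM in J82, 87.8 and 82.1 CPM in RT112, and 111 and 116 CPM in TCCSUP. ANKRD1, a YAP target, reached 1210 and 1240 CPM in treated 253J and 1220 CPM in both treated J82 libraries, but it started lower in 253J, at 15.9 and 9.69 CPM against 107 and 70.5 CPM. The log2 difference of ANKRD1, 2.19 ± 0.27, was 1.88 without control replicate 3 of 253J, below the limit.

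**Figure D3:**
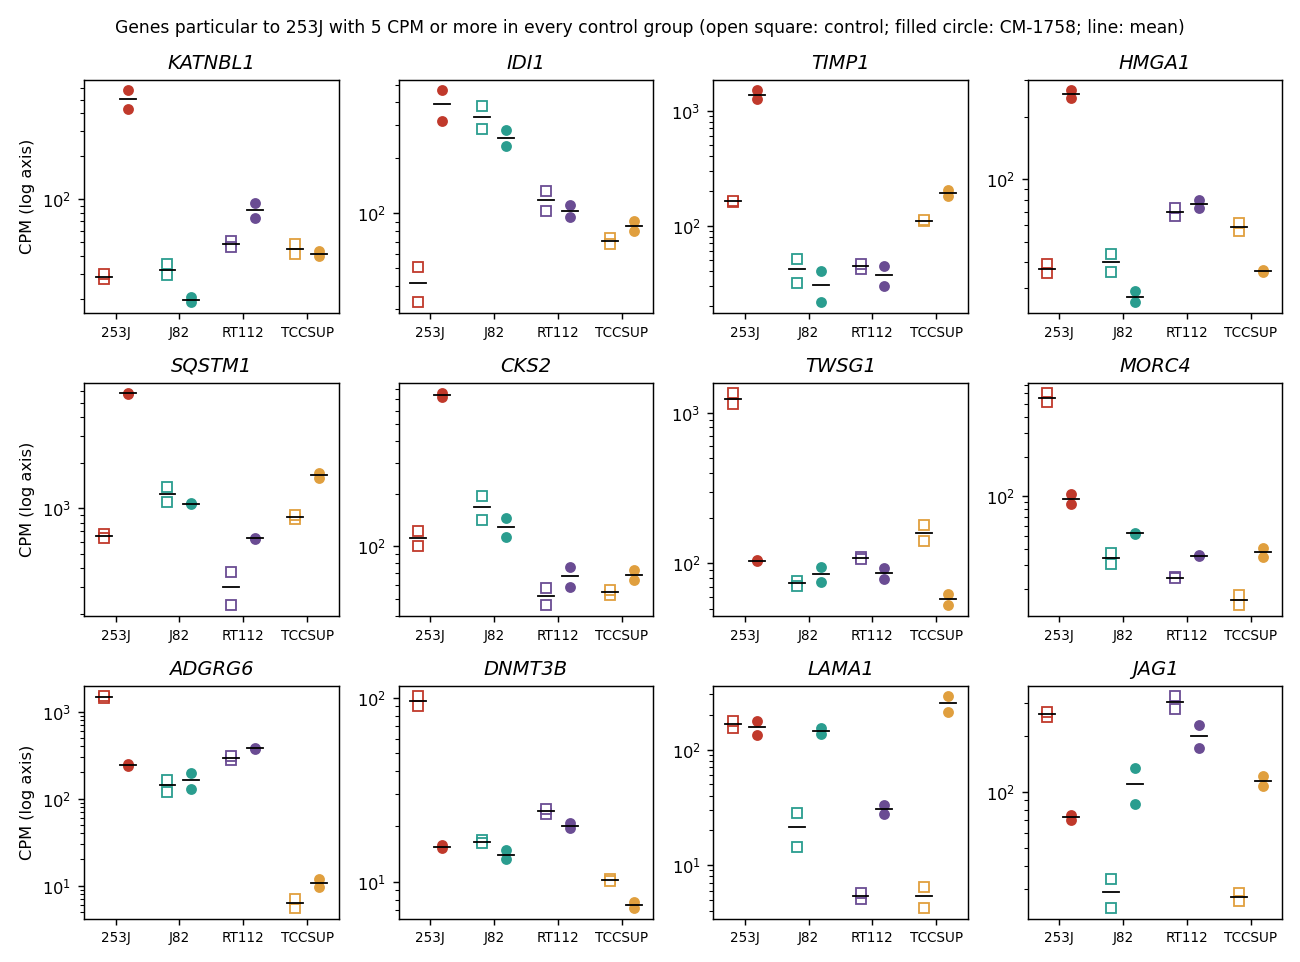
CPM of each library on a log axis for 12 genes particular to 253J with at least 5 CPM in every control group (open squares, control; filled circles, CM-1758; lines, means of 2 libraries). In the first 6 genes the treated 253J libraries rise while the other lines move little or less. In TWSG1, MORC4, ADGRG6 and DNMT3B the 253J controls stand above all other libraries and fall with treatment, and in LAMA1 the other 3 lines rise while 253J is even.

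TWSG1, MORC4 and ADGRG6 were expressed in the 253J controls far above the other lines. TWSG1, a secreted modulator of BMP signaling, fell from 1350 and 1140 CPM to 104 and 105 CPM, into the range of the other lines (52.7 to 180 CPM). MORC4, a chromatin-associated ATPase, fell from 602 and 514 CPM to 105 and 87 CPM, while the other lines held between 15 and 53 CPM. ADGRG6, an adhesion G protein-coupled receptor, fell from 1440 and 1510 CPM to 235 and 251 CPM.

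The log2 differences were -3.05 ± 0.20 for TWSG1 (adjusted p = 5.74e-08), -3.34 ± 0.18 for MORC4 (1.36e-08) and -3.05 ± 0.24 for ADGRG6 (3.41e-07). DNMT3B, a de novo DNA methyltransferase, fell from 89.9 and 102 CPM to 15.3 and 15.8 CPM in 253J, against 16.9 and 16.2 to 14.8 and 13.3 CPM in J82, with a log2 difference of -2.31 ± 0.15 (adjusted p = 5.74e-08). FAS, a death receptor, fell in 253J from 257 and 219 CPM to 22.1 and 21.2 CPM, with a log2 difference of -2.60 ± 0.23 (adjusted p = 1.16e-06).

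LAMA1 and JAG1 showed another form. LAMA1, a laminin chain of basement membranes, was even in 253J (155 and 176 CPM in controls, 133 and 178 CPM after treatment, overlapping groups). It rose in J82 from 28.2 and 14.2 to 153 and 136 CPM, and in TCCSUP from 4.23 and 6.51 to 211 and 290 CPM, with a log2 difference of -3.69 ± 0.32 (adjusted p = 8.73e-07). JAG1, a Notch ligand, fell in 253J from 251 and 270 to 70.5 and 75.3 CPM, and rose in J82 from 34.1 and 23.6 to 135 and 85.9 CPM and in TCCSUP from 28.6 and 25.9 to 121 and 107 CPM. HSPE1-MOB4, which has the largest lower difference in this subset, is a readthrough of 2 genes, so its counts are uncertain, and its adjusted p was 0.0211 without treated replicate 3 of 253J.

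Among the 262 genes with a higher response, 106 had at most 3 counts in each 253J control library, and 46 of these had at least 5 CPM in the controls of each other line. These 46 genes, chosen after their values were seen, were silent or nearly so in untreated 253J and expressed in the rest. Their median level after CM-1758 was 0.685 CPM in 253J, with a highest value of 11.6 CPM, against control medians of 36.1, 33.5 and 25.7 CPM in J82, RT112 and TCCSUP. In 45 of the 46, treated 253J stayed below the treated level of every other line. Over all genes tested, 109 had this same starting pattern, and of the 63 that were not particular to 253J, 7 had over 3 counts in both treated 253J libraries. Whether a count of 0 stands for no transcript or for reads that the authors' counting gave to another gene was not tested. FXR1, an RNA-binding protein that most cells express, had 0 and 0.0766 CPM in the 253J controls and at least 109 CPM in the other 12 libraries.

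S100A6, a small calcium-binding protein, had no counts in either 253J control and 1.54 and 1.05 CPM after CM-1758, while the other 12 libraries held between 743 and 1870 CPM. ME1, the cytosolic malic enzyme that supplies NADPH, went from 0 and 0 to 1.66 and 2.53 CPM. SNAI2, a repressor of epithelial genes, went from 0 and 0 to 0.753 and 0.641 CPM. NLRP2, an inflammasome-type receptor, went from 0 and 0 to 1.78 and 2.06 CPM. These 4 genes were thus detected in 253J with treatment alone, at levels far below those of the other lines. Against a limit of 3 counts per control library, they were at least 11.6-fold, 18.8-fold, 6.23-fold and 17.2-fold higher in treated 253J in the same order.

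ACSL5, a long-chain acyl-CoA synthetase, moved in opposite directions. It had no counts in either 253J control and 5.39 and 7.29 CPM after treatment, at least 56.7-fold higher. It fell in J82 from 42.9 and 25.4 to 7.09 and 1.05 CPM, in RT112 from 362 and 356 to 33.5 and 67 CPM, and in TCCSUP from 124 and 112 to 16.5 and 18.3 CPM. Treated 253J had one library above both treated J82 libraries and the other between them, and lay below treated RT112 and TCCSUP. ACSL5 was the 1 gene of the 46 in which the treated mean of 253J was not the lowest. DKK1, a secreted Wnt inhibitor, rose in 253J from 0.181 and 0 CPM to 21.6 and 21.6 CPM, against at least 68.3 CPM in every library of the other lines, with a log2 difference of 6.92 ± 0.54 (adjusted p = 3.41e-07).

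Zinc finger genes named ZNF stood out among the genes with a higher response. Most of them encode DNA-binding proteins, many of which carry a KRAB domain that recruits repressors of transposable elements, and they lie in large arrays on chromosome 19. Of the 570 tested genes with a ZNF symbol, 42 were particular to 253J with a higher response (7.37%, against 1.23% of all genes) and 2 with a lower one (0.351%, against 2.54%). The ZNF genes were singled out after these values were seen.

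Neighbours were read from the RefSeq gene order, in which 20303 of the 21297 symbols were found. A run was taken as at least 4 particular genes of 1 direction with at most 3 other tested genes between them, and 7 runs were found. The longest lay on chromosome 19 and held 25 tested genes from ZNF880 to ZNF665, of which 17 were particular to 253J with a higher response, all 17 of them ZNF genes. A second run of 4 genes, ZNF761, ZNF813, the pseudogene TPM3P6 and ZNF331, lay further along the same chromosome.

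The RefSeq promoters (250 bases before to 50 after the start, GRCh38.p14) of 3 genes of the run are shown because the run moved together, with CpG dinucleotides, the sites of DNA methylation, in capitals.
ZNF347 promoter (GRCh38.p14, chr19:53159004-53159303, strand minus): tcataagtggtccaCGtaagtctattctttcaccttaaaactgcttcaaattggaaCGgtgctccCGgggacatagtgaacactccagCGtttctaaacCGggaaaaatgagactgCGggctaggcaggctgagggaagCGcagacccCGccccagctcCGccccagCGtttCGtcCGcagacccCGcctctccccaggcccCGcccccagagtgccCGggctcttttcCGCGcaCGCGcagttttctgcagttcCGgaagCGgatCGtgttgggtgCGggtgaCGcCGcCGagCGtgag
ZNF320 promoter (GRCh38.p14, chr19:52897645-52897944, strand minus): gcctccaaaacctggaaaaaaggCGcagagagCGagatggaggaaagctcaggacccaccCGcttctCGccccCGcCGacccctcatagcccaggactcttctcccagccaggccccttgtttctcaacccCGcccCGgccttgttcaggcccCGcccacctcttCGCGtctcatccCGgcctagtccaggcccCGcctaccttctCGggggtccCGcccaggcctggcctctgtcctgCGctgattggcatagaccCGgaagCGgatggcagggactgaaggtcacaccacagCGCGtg
ZNF83 promoter (GRCh38.p14, chr19:52690447-52690746, strand minus): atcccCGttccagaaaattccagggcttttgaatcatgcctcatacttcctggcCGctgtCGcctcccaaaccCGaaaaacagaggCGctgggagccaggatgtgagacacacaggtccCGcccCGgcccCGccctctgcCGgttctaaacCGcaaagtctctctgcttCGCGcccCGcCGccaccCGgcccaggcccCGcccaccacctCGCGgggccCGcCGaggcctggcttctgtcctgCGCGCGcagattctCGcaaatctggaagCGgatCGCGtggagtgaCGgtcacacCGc
These promoters hold 27, 20 and 29 CpG dinucleotides. Promoters were at hand for 10 of the 17 genes, with a median of 26.5 CpG dinucleotides, against 24 over the 14270 promoters of tested genes.

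ZNF347, named by the largest difference in the run, had no counts in either 253J control and 10.7 and 12.5 CPM after CM-1758, at least 104-fold higher. The other lines held it with and without treatment, at 145 to 185 CPM in J82, 33.6 to 41.3 CPM in RT112 and 58.7 to 72.6 CPM in TCCSUP. ZNF320 went from 0 and 0 to 6.85 and 6.41 CPM in 253J, at least 59.3-fold higher, and lay between 36.4 and 120 CPM elsewhere. Neither gene changed in any of the other lines by the test within the line.

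ZNF83 was measured in the 253J controls, at 1.96 and 2.03 CPM, and rose to 27.4 and 36.5 CPM, near the 34.5 to 40.7 CPM of the RT112 and TCCSUP controls. Its log2 difference was 3.54 ± 0.21 (adjusted p = 2.82e-08). ZNF808 rose from 1.2 and 2.45 to 17.1 and 22.4 CPM, with a log2 difference of 2.82 ± 0.30 (adjusted p = 6.36e-06). ZNF28 rose from 0.145 and 0 to 8.24 and 5.91 CPM. At the other end ZNF665 had 0.238 and 0.135 CPM after treatment and none before.

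Over the 17 genes of the run, 9 had no counts in both 253J controls, and the median level was 0 CPM in the controls and 1.78 CPM after treatment. Median control and treated levels were 56.8 and 54.9 CPM in J82, 23.9 and 19.7 CPM in RT112, and 22.5 and 29.6 CPM in TCCSUP. In 16 of the 17, treated 253J remained below the treated level of every other line, and within the other lines 1, 2 and 1 of the 17 genes passed the test in J82, RT112 and TCCSUP. ZNF160, inside the run, was not particular to 253J. It rose from 15.5 and 20.9 CPM to 47.7 and 55.7 CPM in 253J, and its log2 difference of 1.08 (adjusted p = 0.000296, edgeR) was below the size limit. These genes resemble each other in sequence, so the split of reads between copies is uncertain.

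**Figure D4:**
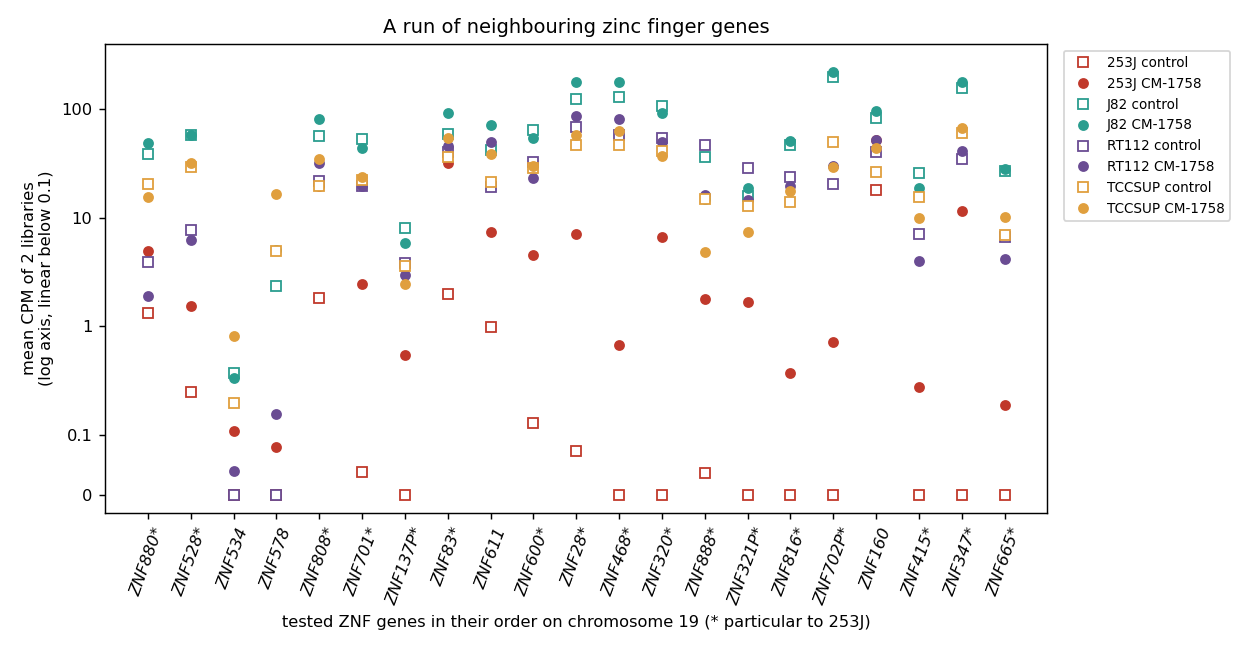
Mean CPM of the 2 libraries of each group (log axis, linear below 0.1) for the tested ZNF genes of the run, in their order on chromosome 19. Open squares are controls and filled circles are treated cells, with 253J in red and the genes particular to 253J marked by a star. In 253J most of these genes rise from 0 or near 0, and in 16 of the 17 marked genes its treated level is still the lowest among the treated lines.

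Clustered protocadherins, adhesion proteins best known from neurons, formed the 2 longest runs with a lower response, both on chromosome 5. Of 19 tested PCDHB genes 9, of 16 PCDHA genes 6, and of 23 PCDHG genes 1 were particular to 253J with a lower response (against 2.54% of all genes), and none with a higher one. Within 253J, 3 PCDHA genes fell and 5 rose (PCDHA1, PCDHA2, PCDHA3, PCDHA4 and PCDHAC1), 10 PCDHB genes fell and 1 rose, and 9 PCDHG genes fell and 0 rose. The share of all genes by this within-line test was not worked out. At stricter limits (log2 fold change beyond 2, adjusted p below 0.01), 746 of all 21297 genes tested fell and 2009 rose in 253J. The family was singled out after these values were seen, and its genes are alike or share exons, so their counts are uncertain. The median log2 fold change of the PCDHB genes was -1.18 in 253J and 1.60, 2.33 and 1.12 in J82, RT112 and TCCSUP. For the PCDHA genes it was -0.82 against 3.51, 2.14 and 3.44. The J82 values lie near the floor. Median levels in J82 were 0.0372 CPM before and 0.313 CPM after treatment for PCDHA, and 0.131 and 0.37 CPM for PCDHB. Median PCDHA levels in the RT112 and TCCSUP controls were also low, at 0.425 and 0.329 CPM. PCDHA7 fell from 6.08 and 5.94 CPM to 1.58 and 1.69 CPM in 253J, and rose in TCCSUP from 0.0396 and 0.306 to 4.49 and 5.98 CPM.

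Among the genes with a lower response, the largest differences belonged to genes that 253J already expressed and that CM-1758 switched on in the other lines. FLT4, the lymphatic VEGF receptor VEGFR3, had no counts in the control libraries of J82, RT112 and TCCSUP. After treatment these held 1.25 and 2.23, 10 and 7.51, and 10.4 and 6.85 CPM, at least 15.6-fold, 87.8-fold and 73.7-fold higher. In 253J it fell from 8.18 and 9.19 to 2.06 and 1.32 CPM.

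CCND2, which encodes cyclin D2, had 174 and 150 CPM in the 253J controls and 80.6 and 82.5 CPM after treatment. It had no counts in any other control library and between 1.12 and 4.74 CPM in the treated ones. FREM2, an extracellular matrix protein, was even in 253J, at 94.8 and 100 CPM before and 66.4 and 90.2 CPM after treatment. It rose from 0 and 0 to 41.4 and 46.3 CPM in RT112 and to 19 and 16.1 CPM in TCCSUP, at least 439-fold and 150-fold, and from 8.36 and 8.25 to 107 and 99.8 CPM in J82.

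CD70, a TNF family ligand of lymphocyte receptor CD27, fell in 253J from 422 and 450 to 106 and 107 CPM. It rose in RT112 from 0 and 0.102 to 90 and 55.1 CPM, so that treated RT112 approached treated 253J. NCAM1, a neural adhesion molecule also used as a leukocyte marker, lay at 102 and 134 CPM in the 253J controls and at 87.3 and 111 CPM after treatment, with overlapping groups. It rose in TCCSUP from 2.26 and 3.1 to 48.5 and 57.9 CPM and in RT112 from 0.0327 and 0 to 10.8 and 10.6 CPM. In FREM2 and NCAM1, even in 253J, other lines moved with treatment toward a level that 253J had from the start. In FLT4, CCND2 and CD70 the level of 253J itself also fell, and CCND2 stayed far below it in the other lines.

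Growth factor receptors and their ligands contributed 7 called genes of 33 tested, all lower, and none was called higher, against 5.22% lower and 1.71% higher of all genes. By the same edgeR test, 18 were lower and 0 higher at an adjusted p below 0.05, against 18.3% and 13.8% of all genes. The median difference was -1.40. FGFR4 had 130 and 134 CPM in the 253J controls and 45.7 and 53.4 CPM after treatment, and it rose in RT112 from 2.35 and 2.58 to 28.1 and 26.9 CPM. FGFR2 fell in 253J from 166 and 149 to 19.7 and 22.6 CPM, was 79.9 and 72.6 CPM in the RT112 controls and 59.1 and 61.5 CPM after treatment, and rose in TCCSUP from 3.84 and 1.91 to 12.7 and 11.2 CPM. The log2 differences were -7.54 ± 0.34 for FGFR4 (adjusted p = 3.53e-09) and -5.82 ± 0.38 for FGFR2 (1.09e-07).

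AREG, which encodes the EGFR ligand amphiregulin, was at 235 and 275 CPM in the 253J controls and at 170 and 209 CPM after treatment. It rose in TCCSUP from 25.6 and 21.1 to 765 and 455 CPM and in RT112 from 4.54 and 5.76 to 80.3 and 102 CPM. Its log2 difference was -5.14 ± 0.35 (adjusted p = 9.03e-08). TGFA, another EGFR ligand, fell in 253J from 725 and 664 to 141 and 134 CPM and rose in RT112 from 48.2 and 53.1 to 103 and 118 CPM. CDH1, the epithelial cadherin, fell in 253J from 191 and 171 to 23.4 and 28.8 CPM, against a rise in J82 from 3.38 and 4.25 to 25.1 and 27.2 CPM, and had a log2 difference of -3.99 ± 0.26 (adjusted p = 5.76e-08).

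Of 26 tested Wnt pathway genes, 5 were called lower and 1, DKK1, higher, and of 22 Notch pathway genes 6 were called lower and 2 higher, against 5.22% lower and 1.71% higher of all genes. At an adjusted p below 0.05 by edgeR, 13 Wnt genes were lower and 1 higher, and 8 Notch genes were lower and 4 higher. Over all genes, 18.3% were lower and 13.8% higher by this test. With replicate number as a block the calls of NOTCH4, one of the 2 higher, and HEY2, one of the 6 lower, were lost (adjusted p = 0.0298 and 0.0254). LEF1, a transcription factor that acts with beta-catenin, fell in 253J from 6.66 and 5.94 to 2.38 and 1.92 CPM and rose in J82 from 0.798 and 1.05 to 3.19 and 1.73 CPM. Of 41 tested neuronal genes, 8 were called lower and none higher, against the same 5.22% and 1.71% of all genes. By the same edgeR test, 16 were lower and 2 higher at an adjusted p below 0.05, against 18.3% and 13.8% of all genes. The median log2 fold change of the 41 was still upward in 253J, at 2.80, against 3.62, 5.11 and 5.90 in J82, RT112 and TCCSUP. NLGN1, a synaptic adhesion protein, was an exception and fell in 253J from 284 and 322 to 36.2 and 42.7 CPM.

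Of 13 tested class II antigen presentation genes, 3 were called lower and none higher, against 5.22% and 1.71% of all genes. By the same edgeR test, 6 were lower and 0 higher at an adjusted p below 0.05, against 18.3% and 13.8%. HLA-DQB1 rose in 253J from 7.21 and 9.96 to 16.5 and 20.3 CPM, and in TCCSUP from 0.119 and 0 to 13.2 and 11.9 CPM. HLA genes have many near copies, so their counts are uncertain.

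Interferon-induced genes fell in J82 (41 of 43 by the test within the line) and TCCSUP (37 of 43), and none rose there. In 253J 9 rose and 14 fell, and in RT112 11 rose and 8 fell. The share of all genes by this within-line test was not worked out. At stricter limits (log2 fold change beyond 2, adjusted p below 0.01), 2009 of all 21297 genes tested rose and 746 fell in 253J. These limits gave 1876 and 265 in J82, 2429 and 295 in RT112, and 3028 and 704 in TCCSUP. For the difference from the mean, of the 43 tested 9 were called higher and none lower, against 1.71% and 5.22% of all genes. Of the 9, 5 were particular to 253J. At an adjusted p below 0.05 there were 23 higher and 0 lower by edgeR, against 13.8% and 18.3% of all genes. Members had a median log2 fold change of -2.77 in J82 and -2.08 in TCCSUP. In 253J and in RT112 it was 0, with 21 members above and 21 below 0 in each, and the median difference was 1.48. OAS2, an antiviral sensor, fell in J82 from 372 and 275 to 18 and 3.42 CPM and in TCCSUP from 52.8 and 42.1 to 1.09 and 1.14 CPM. In 253J it was 0.0724 and 0.23 CPM in the controls and 0.871 and 0.439 CPM after treatment, and its adjusted p of 0.00103 was 0.0336 with replicate number as a block and 0.0255 without treated replicate 1 of 253J.

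BST2, another interferon-induced gene and an antiviral membrane protein, rose in 253J from 0 and 0.192 to 2.22 and 2.43 CPM and in RT112 from 22 and 19.4 to 77 and 81.7 CPM, and it fell in J82 and TCCSUP. GBP5, an interferon-induced GTPase outside the list, had no counts in the 253J controls and 44.4 and 48.5 CPM after CM-1758, at least 416-fold higher. It was at most 1.94 CPM in J82 and RT112 and rose in TCCSUP from 1.07 and 0.881 to 6.14 and 4.21 CPM.

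Replication and mitosis genes had lower responses in 253J than in the mean of the other lines, mostly by less than the size limit. Of 35 tested genes of replication licensing and the fork, none was called, against 5.22% lower and 1.71% higher of all genes. Yet 29 had a lower and 0 a higher response at an adjusted p below 0.05 by edgeR, against 18.3% and 13.8% of all genes. The median difference was -1.09, against -0.072 for all genes. In 253J the list's median log2 fold change was -1.66, next to -0.85 in RT112, -0.69 in J82 and -0.079 in TCCSUP. MCM2, a subunit of the replicative helicase, fell in 253J from 320 and 262 to 100 and 75.6 CPM, fell as much in RT112, from 334 and 273 to 97.3 and 87.1 CPM, and held 102 and 113, then 152 and 162 CPM in TCCSUP.

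Of 35 mitosis genes 1 was called lower, CENPF, a kinetochore protein, and 0 higher, against 5.22% and 1.71% of all genes. By edgeR 28 had a lower and 0 a higher response at an adjusted p below 0.05, against 18.3% and 13.8% of all genes. Here 253J and TCCSUP were alike in size, with median log2 fold changes of -2.42 and -2.27, against -1.14 in J82 and -0.34 in RT112. TOP2A, a topoisomerase of dividing cells, fell from 969 and 830 to 146 and 108 CPM in 253J and from 774 and 738 to 138 and 129 CPM in TCCSUP, while RT112 had 897 and 911 CPM before and 770 and 630 CPM after treatment. CENPF fell from 811 and 767 to 85.7 and 89 CPM in 253J, and its log2 difference of -2.03 was -1.94 with the replicate block. The CENPF difference also fell short of the size limit of 2 without control replicate 2 of 253J (-1.99) or of TCCSUP (-1.99). The same held without treated replicate 1 of J82 (-1.90) or treated replicate 2 of TCCSUP (-1.97). It was -1.96 with library size alone, -1.93 with a mean without J82 and -1.58 with a mean without RT112. Of 22 cyclins, CDK inhibitors and related genes, CCND2 and E2F2 were called lower and none higher, against 5.22% and 1.71% of all genes. The log2 difference of E2F2, -2.02, was between -1.91 and -1.99 without treated replicate 3 of 253J, treated replicate 1 of J82, control replicate 1 of RT112 or treated replicate 2 of TCCSUP, and -1.60 with a mean without TCCSUP. At an adjusted p below 0.05 by edgeR, 9 of the 22 had a lower and 5 a higher response, against 18.3% and 13.8% of all genes. CKS2, outside these lists, had a higher response, as given above.

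For homologous recombination and Fanconi genes, which repair broken DNA, 20 of 26 had a lower and 0 a higher response at an adjusted p below 0.05 by edgeR. Over all genes, 18.3% had a lower and 13.8% a higher response by this test. The median log2 fold changes of the homologous recombination and Fanconi list were -1.87 in 253J and between -0.73 and -0.42 in the other lines. BRCA2 fell in 253J from 112 and 111 to 22.1 and 25.4 CPM, and in J82 from 158 and 137 to 84.1 and 57.1 CPM. By the same test, endoplasmic reticulum chaperones had a lower response in 16 of 23 and a higher one in 1. Their median log2 fold changes were -1.16 in 253J and -1.10 in TCCSUP.

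Among the 11 tested HDAC genes, the targets of the drug class, none was called, against 1.71% higher and 5.22% lower of all genes. At an adjusted p below 0.05 by edgeR, 6 had a higher and 2 a lower response, against 13.8% and 18.3% of all genes. HDAC3 rose in 253J from 58.4 and 58.3 to 161 and 156 CPM, with log2 fold changes of 1.44 in 253J and between 0.43 and 0.94 in the other lines. HDAC9 did not change in 253J by the test within the line (58.4 and 59.8 CPM, then 65.3 and 59.3 CPM) and rose in RT112 from 0.752 and 0.474 to 12.6 and 12.7 CPM.

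**Figure D5:**
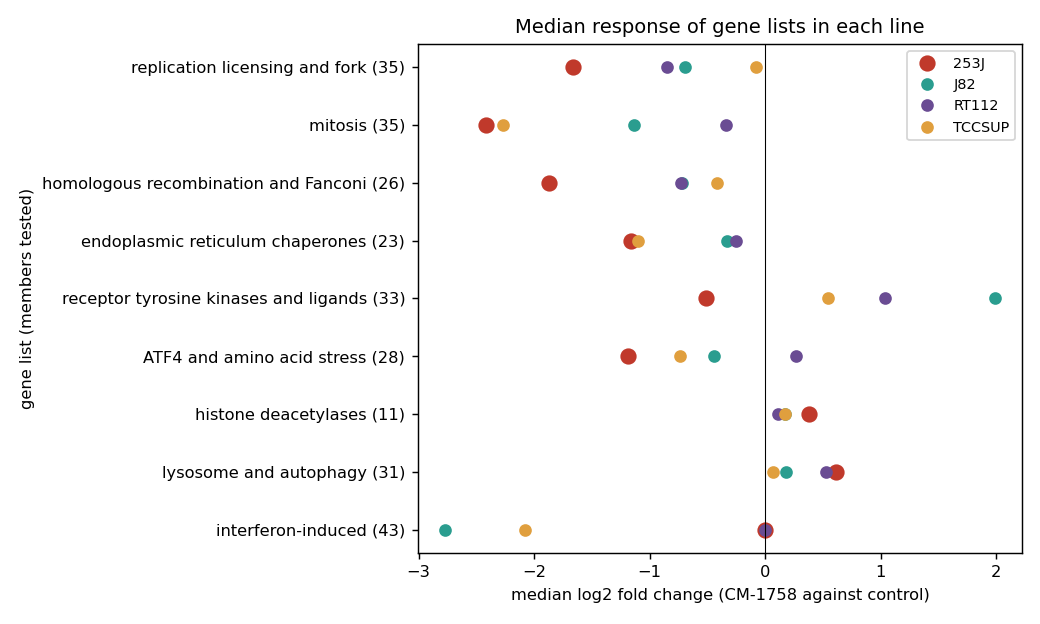
Median log2 fold change of CM-1758 over control in each line for 9 gene lists, with the number of members tested in brackets. 253J has the lowest median for replication, homologous recombination and growth factor receptor genes, lies beside TCCSUP for mitosis and chaperone genes, and lies at 0 with RT112 for interferon-induced genes, whose members lie evenly above and below 0 in these lines and have medians of -2.77 in J82 and -2.08 in TCCSUP.

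Promoters of genes particular to 253J were searched on both strands for 7 short motifs, with TGACTCA, the site of AP-1, and TTTGAA among them. TGACTCA was in 8.65% of 185 promoters of genes with a higher response, 4.51% of 377 with a lower one and 3.67% of the 14270 tested. TTTGAA was in 17.3%, 9.28% and 10.8%. CACGTG, the E-box, was in 3.78%, 7.16% and 9.44%. CCAAT was in 33.5%, 28.9% and 36.7%, and TGACGTCA, GAAACTGA and TTTGGCGC were each in under 3% of every set, of which TTTGGCGC was in 0 of the 185 higher promoters. A match describes letters in a window and was not tested.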

How the data were processed

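RNA of 4 BC cell lines was sequenced from TruSeq stranded total RNA libraries depleted of ribosomal RNA. The authors deposited raw counts per gene for 16 libraries (unit: counts), and the submitters' processing notes name HISAT2, StringTie and GRCh37. Versions and the strand setting of the counting are not given in the sources used here, so counts of antisense and overlapping genes are uncertain. The study describes the libraries of a group as independent experiments.

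The counts were filtered with filterByExpr over 8 groups, scaled by TMM and fitted in 1 model over all libraries with edgeR 4.0.16 (quasi-likelihood test, 8 residual degrees of freedom, R 4.3.3), with Benjamini-Hochberg adjustment over 21297 genes. Steps were tested on simulated data. A count of 3 per library was taken as the limit of detection for fold bounds. DESeq2 1.42.0 and other settings were alternatives. Deviations of same-numbered libraries correlated at 0.12 to 0.56 within the 4 lines. Whether the numbers pair the samples was not tested, and the main model had no term for pairing. The 253J groups share replicate 3 only. With replicate number as a block, the 253J response therefore rests on 1 control and 1 treated library.

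Named genes were the 10 largest differences in each direction among particular genes measured in every line, 5 more in each direction among the rest, and up to 3 called members of each of 40 lists. Others, including genes with at least 5 CPM in all controls, ZNF and PCDH genes and uncalled list members, were chosen after their values were seen. Some genes that the rule gave are not reported here. The members and lists were chosen with earlier results of these data known.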

Additional observations from a re-analysis of the deposited data

Results flagged for a closer look

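The response of 253J differed from the mean of the other lines by the test of the difference itself for 365 genes with a higher and 1112 with a lower response, and from each other line for 262 and 541. Of these, 10 genes with a higher response changed in 253J and the opposite way in each of the other 3 lines, and so did 55 with a lower response. Named genes of this kind were ACSL5, which rose in 253J and fell elsewhere (log2 difference 13.33), and 9 genes that fell in 253J and rose elsewhere. These were FLT4 (-12.48), CD70 (-9.64), SLC35F3 (-8.23), PKHD1 (-7.88), FGFR4 (-7.54), RYR3 (-7.52), TTLL6 (-7.37), LEF1 (-5.81) and NLGN1 (-5.58). PKHD1 stayed low in every library of the other lines, as given below, so its rise there rests on few counts. The levels of SLC35F3 and TTLL6 are not given here. Fitted differences of ACSL5 and of genes without counts in a control group depend on the prior count and are no bound.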

How the results depend on the processing

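Counts are given as higher, lower, particular higher and particular lower, against 365, 1112, 262 and 541. Requiring at least 10 counts in every library left 119, 236, 96 and 172, with 11984 genes tested. Keeping only genes at 5 CPM or more in every control group, chosen after seeing the data, left 37, 76, 35 and 60. Lower thresholds gave 1400 higher, 2655 lower and 536 particular higher, and a mean without RT112, which also asks for 1 fewer comparison, gave 490 higher and 423 particular higher (the cause was not tested). Leaving out each library in turn gave ranges of 286 to 389, 919 to 1230, 214 to 276 and 429 to 566. The replicate block gave 267, 861, 208 and 479, kept 592 of the 803 particular genes, and ended the calls of 16 of the 110 genes that the naming rule gave. In the replicate block the 253J response rests on replicate 3 alone, with 1 control and 1 treated library. A mean without J82 brought the log2 differences of HMOX1, ANKRD1 and HMGCS1 to 1.85, 1.89 and 1.99, below the limit. DESeq2 gave 494, 1239, 303 and 569. None of the 110 changed direction under any setting that gave it a value (41 had one with at least 10 counts in every library, and all 110 in the other settings that were compared gene by gene). Genes with at most 3 counts in a group give bounds only, whatever the setting.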

Other observations

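PKHD1, the gene of the ciliary protein fibrocystin, had 184 and 216 CPM in the 253J controls and 27.8 and 24.7 CPM after CM-1758, and at most 0.748 CPM in any library of the other lines. RYR3, an intracellular calcium channel, fell in 253J from 83.1 and 123 to 14 and 13.3 CPM. TP63, a basal urothelial regulator, had a mean of 0.113 CPM in the 253J controls and 6.89 and 12 CPM after treatment, below the 89.6 to 136 CPM of RT112. Its difference from the mean of the other lines was called (log2 difference 5.78, adjusted p = 0.00251 by edgeR), it was not particular to 253J, and the adjusted p was 1 without control replicate 3 of J82, 0.0147 with a mean without RT112 and 0.0184 with libraries thinned to the smallest. HK1 and HK2, the hexokinases of the first step of glycolysis, moved apart in 253J: HK1 rose from 1.27 and 1.69 to 10.7 and 10.1 CPM, against at least 95.7 CPM in every other library, and HK2 fell from 85.3 and 64.9 to 23.4 and 23.2 CPM. The HK2 difference of -2.07 was -1.86 with the replicate block and -1.85 without control replicate 2 of 253J, and lay at the limit without treated replicate 2 of RT112 (-1.99) or control replicate 1 of TCCSUP (-2.0).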
